A study of Drosophila melanogaster with 15 samples.

Results

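Expression in DSas-6 mutant larvae was set against 2 wild-type strains, w67 and OregonR, each on its own. The comparison used 9 of the study's 15 Affymetrix arrays, 3 for each of these strains, chosen by the genotype in the labels. A gene counted as changed when it passed the test against each wild type with the same sign. Of the 11982 genes with a probe set of their own, 6928 reached a log2 value of 4 on at least 3 of the 9 arrays and were tested.

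The arrays measured brains and imaginal discs dissected from wandering larvae of the 3rd instar, raised at 25 °C, with tissue of 10 larvae pooled in each sample. The mutants carried a DSas-6 mutation and are described by the submitters as having no centrioles. The series also holds DSas-4 mutants, described likewise, and a strain overexpressing Sak. The allele of DSas-6, the sex of the larvae and the background of the mutant strain are not given in the sources used here, so the mutation and the strain that carries it cannot be told apart. The labels call the samples biological replicates.

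A centriole is a short cylinder of microtubules, and a pair of centrioles with the protein layer around them forms the centrosome, the main organiser of microtubules in many animal cells. Sas-6 forms the hub and spokes of the cartwheel, on which each new centriole is built, and Sas-4 then adds the microtubule wall. Fly larvae without centrioles assemble spindles by other routes. In wild-type larvae the brain stem cells, the neuroblasts, use centrosomes to orient asymmetric divisions. Brains and discs are rich in dividing cells in the late larva.

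Levels below are deposited log2 values after each array was centred on the median of its tested genes, and a difference of 1 is a 2-fold change. Replicates of all groups correlated at r of at least 0.9888, and the median SD of a gene was 0.073 in DSas-6, 0.079 in w67 and 0.074 in OregonR. The lowest deposited value was 2.1777 on every DSas-6 array, 2.1741 in w67 and 2.1799 in OregonR, as separate normalization runs would give, and run and strain cannot be told apart. On the DSas-4 arrays it was 2.1741, the same as in w67. Spike-in probe sets for dap stood at 8.91 ± 0.09 in DSas-6 against 7.98 ± 0.61 in w67 and 8.22 ± 0.34 in OregonR, and those for lys, phe, thr and 18S ribosomal RNA were likewise higher on all 3 DSas-6 arrays than on the 6 wild-type arrays. The hybridisation control bioB (means of 7.47, 7.45 and 7.69 in DSas-6, w67 and OregonR) and the 3′ minus 5′ difference of Act5C (means of 1.27, 1.32 and 1.25), a measure of RNA integrity, showed no such gap. The part of the spike-in and ribosomal RNA differences in the results was not tested.

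The targeted gene checks the labels. Sas-6 stood at 3.32, 3.23 and 3.13 on the 3 DSas-6 arrays, at 7.58, 7.71 and 7.73 in w67 and at 7.65, 7.68 and 7.75 in OregonR. It was under 4 on every mutant array and fell by at least 12.6-fold (limma, adjusted p = 1.49e-11 against w67 and 1.41e-11 against OregonR), the largest change against both wild types among the tested genes. Sas-4, which acts after Sas-6 in centriole assembly, was at 7.61 ± 0.22 against 7.56 ± 0.16 and 7.72 ± 0.09 and did not pass. SAK, the kinase that starts centriole duplication, differed by -0.19 from w67 and by 0.04 from OregonR, and did not pass either.

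In all, 430 of the 6928 genes (6.21%) were called, passing against each wild type with the same sign: 180 rose (2.6%) and 250 fell (3.61%). Most changes were small, with a median of 0.38 among the genes that rose and -0.32 among those that fell, where the smaller of the differences from w67 and OregonR is the size of a change. A size of at least 1 was reached by 12 genes (0.173%), 6 in each direction, and a size of at least 0.5 by 108 genes, of which 57 rose. Taken alone, 994 genes (14.3%) differed from w67 and 1006 (14.5%) from OregonR. A further 12 genes passed against both with opposite signs, among them the neuronal gene elav, singled out after its values were seen, which was 0.42 above w67 and 0.66 lower than OregonR (difference -0.66). On bulk tissue, fewer cells of a type and less RNA per cell cannot be told apart.

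**Figure D1:**
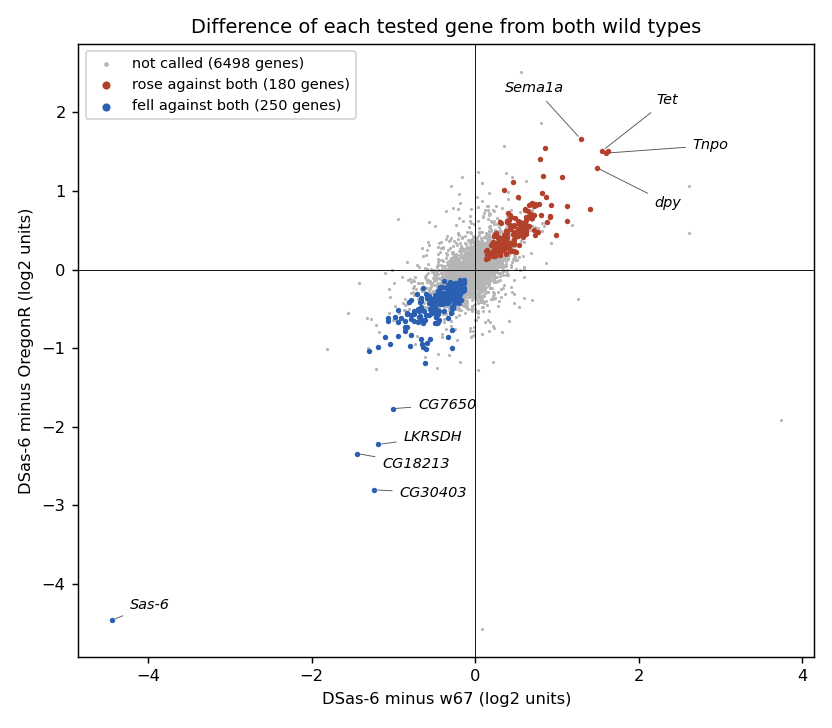
Each point is 1 of the 6928 tested genes, with its difference from w67 on the horizontal axis and from OregonR on the vertical axis, both in log2 units. The 180 genes that rose against both (red) and the 250 that fell (blue) lie mostly within 1 unit of 0, and Sas-6 lies apart at -4.44 and -4.47.

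The 9 arrays separated by strain. On the first principal component (36.4% of the variance) the DSas-6 arrays lay between 9.78 and 14.61 and the 6 wild-type arrays between -8.86 and -3.60, and the second (26.2%) separated w67 from OregonR. For 421 of the 430 genes no wild-type array reached into the range of the 3 DSas-6 arrays or beyond it, as for 1229 (17.7%) of all tested genes. Of the genes that rose, 177 of 180 lay apart above the wild types, against 7.48% of all tested genes, and of those that fell 244 of 250 lay apart below, against 10.3%. The genes were called on these same 9 arrays, which favours such a separation, so these counts are a description and lend the calls no support. The genes that rose were less even within the mutant than those that fell: their median SD over the DSas-6 arrays was 0.105, against 0.068 for those that fell and 0.073 for all tested genes. DSas-6 replicate 3 was the lowest of the 3 for 111 of the 180 genes that rose (61.7%), against 35.1% of all tested genes. For the 250 genes that fell, the highest array was replicate 1, 2 or 3 in 77, 88 and 85. When any 1 of the 9 arrays was left out, and under every scaling tried, 168 of the 430 genes kept their call (66 rose, 102 fell); these are called stable below. Where a named call was lost, the array or scaling is given, with the range of the gene's smaller difference over the 9 omissions in brackets.

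The largest rise was that of Tet, the fly member of the Ten-eleven translocation dioxygenases, with 8.54, 8.94 and 7.70 on the DSas-6 arrays, 6.79, 6.98 and 6.76 in w67 and 6.77, 7.04 and 6.84 in OregonR. Every mutant array was above every wild-type array, and replicate 3 was the lowest of the 3. The rise was 2.85-fold (limma, adjusted p = 0.001 and 0.000878). Tnpo, transportin, a nuclear import receptor, stood at 10.17, 10.10 and 10.51 in DSas-6 and between 8.24 and 9.05 in the wild types, a rise of 2.79-fold (adjusted p = 0.000749 and 0.000875). The giant apical matrix protein gene dpy, which anchors epithelia to the cuticle, stood at 7.69, 7.33 and 7.23 against 5.89 to 6.31 and rose 2.46-fold (adjusted p = 0.00122 and 0.00229). Sema1a, a transmembrane semaphorin of axon guidance, rose 2.45-fold, from 6.60 ± 0.29 in w67 and 6.23 ± 0.14 in OregonR to 7.89 ± 0.57.

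CG15831 was under 4 on all 6 wild-type arrays and at 5.13, 4.76 and 5.06 in DSas-6, at least 1.93-fold higher (limma, adjusted p = 1.96e-06 and 1.88e-06). It was 1 of 8 genes that rose from under 4 on every wild-type array, with Dyro (at least 1.61-fold) and Alg-2, Apoptosis-linked gene-2 (at least 1.24-fold), among the 15 largest rises. Cow, Carrier of Wingless, a secreted proteoglycan that binds the Wingless ligand, stood at 6.62, 6.21 and 5.24 against 4.70 to 5.23, so its replicate 3 lay at the upper edge of the wild-type range. The others of the 15 were CG15385 (at least 1.80-fold), CG6357 (1.77-fold), CG13068 (1.76-fold), CG42458 (1.76-fold), the RNA-binding protein gene sm (1.75-fold), the nicotinic receptor subunit gene nAChRalpha4 (1.73-fold) and ed (1.72-fold), an adhesion molecule of the immunoglobulin family. A second probe set of CG42458 went the other way, with a difference of -0.31 from w67, which passed, and of -0.14 from OregonR, which did not. Of the 15, 11 were stable, and replicate 3 was the lowest DSas-6 array in 12. Cow (0.76 to 1.45) and nAChRalpha4 (0.65 to 1.05) lost the call without DSas-6 replicate 1 or replicate 2, or w67 replicate 2 or replicate 3, and CG6357 (0.52 to 1.02) lost it without w67 replicate 3. sm (0.64 to 1.11) lost the call without DSas-6 replicate 1 or replicate 2, w67 replicate 2, or any 1 OregonR array.

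**Figure D2:**
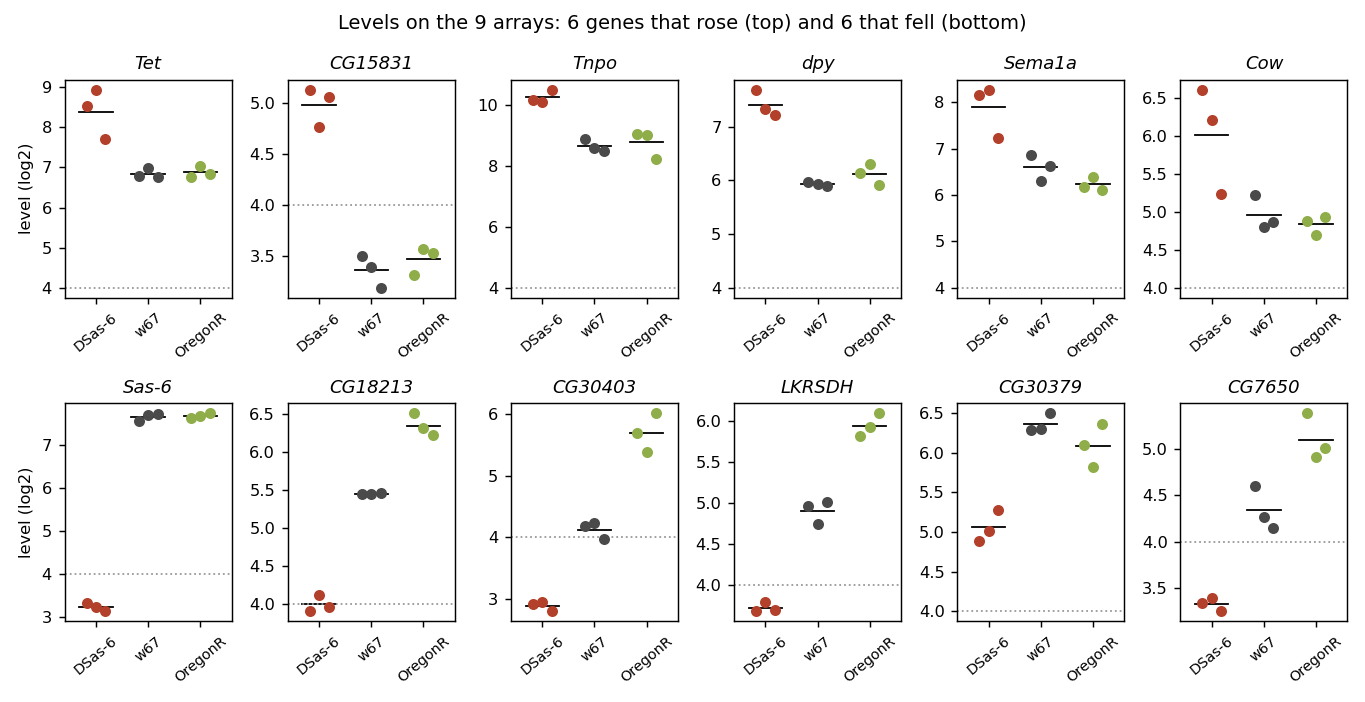
Level in log2 units of the 6 genes with the largest rise (top) and the 6 with the largest fall (bottom) on each of the 9 arrays, with each group's mean as a bar and the filter level of 4 before centring as a dotted line. The 3 DSas-6 points of each gene lie beyond all 6 wild-type points, and vertical scales differ between genes.

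After Sas-6, the largest falls were in genes of modest level. CG18213 stood at 3.91, 4.12 and 3.96 in DSas-6, between 5.44 and 5.46 in w67 and between 6.21 and 6.50 in OregonR, and fell 2.73-fold (limma, adjusted p = 8.29e-05 and 8.21e-07). LKRSDH, which encodes the enzyme that starts lysine breakdown, was under 4 on all 3 mutant arrays (3.68, 3.79 and 3.69) against 4.74 to 5.02 in w67 and 5.82 to 6.10 in OregonR. It fell at least 1.86-fold (adjusted p = 0.000518 and 1.56e-06). For these genes OregonR lay above w67, so the size is that of the w67 difference. CG30403 (at least 1.08-fold) and CG7650 (at least 1.25-fold) were also under 4 on every mutant array, as were 15 of the 250 genes that fell, Sas-6 included.

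CG30379 fell 2.05-fold, to 5.06 ± 0.20 from 6.36 ± 0.12 in w67 and 6.09 ± 0.27 in OregonR. Nep1, a neprilysin that cuts peptides at the cell surface, stood at 4.39, 4.12 and 4.32 against 5.17 to 5.60 on the wild-type arrays and fell 1.99-fold (limma, adjusted p = 2.87e-05 and 8.36e-05). Neuronal genes were among them, TkR86C, a receptor of tachykinin-like peptides (at least 1.06-fold), and Rbp, the RIM-binding protein of presynaptic active zones (1.74-fold). Genes of vesicle and enzyme function, mv, the fly relative of the lysosomal trafficking regulator (1.81-fold), Rab3GAP1, a subunit of the GTPase activator of Rab3 (1.72-fold), and Adgf-A, a secreted adenosine deaminase (1.66-fold), fell as well. CG7991 (1.80-fold), Rsod (at least 1.46-fold) and Np, a membrane serine protease (1.66-fold), completed the 15, of which 14 were stable. Np (-0.63 to -0.83) lost the call without DSas-6 replicate 1, or OregonR replicate 2.

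Falls and rises differed by level. Of 335 tested genes with a mean under 5, 11.3% fell and 5.37% rose, and of 848 genes with a mean of at least 11, 0.708% fell and 2.59% rose. A dim gene could pass the filter through the strain where it was high, which favours calls at low levels. Of the called genes, 15 that fell were under 4 on all 3 DSas-6 arrays. A further 8 that rose were under 4 on all 6 wild-type arrays. The shares are thus a description, and the part of the filter in them was not tested. The 5 genes of highest level that rose were ctp, a dynein light chain (0.15), Inx2, a gap junction innexin (0.34), yps, a Y-box RNA-binding protein (0.20), l(3)neo38 (0.23) and Sam-S, which makes S-adenosylmethionine (0.14). The 5 of highest level that fell were bnb (-0.20), eIF3e, a subunit of an initiation factor (-0.14), GCS2alpha, a glucosidase of the endoplasmic reticulum (-0.42), ND-42, a subunit of respiratory complex I (-0.15), and Sec31, a coat protein of vesicles leaving the endoplasmic reticulum (-0.33). GCS2alpha and Sec31 were the stable ones of these 10. ctp (0.13 to 0.17) lost the call without DSas-6 replicate 2, or w67 replicate 3 and also without centring and with quantile normalization, and Inx2 (0.25 to 0.42) lost it without DSas-6 replicate 2, or OregonR replicate 3. yps (0.17 to 0.25) lost the call without DSas-6 replicate 1 or replicate 2, and Sam-S (0.13 to 0.15) lost it without any 1 of the 9 arrays and also without centring and with quantile normalization. bnb (-0.17 to -0.21) lost the call without any 1 DSas-6 array, or any 1 w67 array, and eIF3e (-0.12 to -0.17) lost it without DSas-6 replicate 1 or replicate 2, w67 replicate 2 or replicate 3, or any 1 OregonR array and also without centring. ND-42 (-0.14 to -0.16) lost the call without DSas-6 replicate 1 or replicate 2, or w67 replicate 1 or replicate 2. The rise of l(3)neo38 held in each omission of 1 array but was lost without centring and with quantile normalization.

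Genes were then grouped into 62 lists by function and tissue, read against the 2.6% that rose and the 3.61% that fell over all tested genes, and against a median difference of -0.005 from w67 and -0.016 from OregonR. Of 18 tested genes of centrioles and pericentriolar material, 1 rose and 2 fell, with list medians of -0.10 and -0.06. Beside Sas-6 these were Rcd2, a gene needed for normal centrosomes in cultured fly cells (6.15, 6.44 and 5.96 against 5.36 to 5.97, difference 0.43), and Cp110, which caps centrioles (5.08, 5.12 and 5.11 against 5.23 to 5.34, difference -0.14). Rcd2 overlapped the wild types at 1 array, while Cp110 did not. Rcd2 (0.30 to 0.54) lost the call without DSas-6 replicate 1 or replicate 2, or w67 replicate 1 or replicate 3, and Cp110 (-0.13 to -0.15) lost it without any 1 DSas-6 array, or w67 replicate 2 or replicate 3 and also with quantile normalization.

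In the division machinery the shares called were 6.9% for spindle genes, 8.33% for condensin and cohesin and 5.26% for cell cycle regulators. These are near the 6.21% of all tested genes, and no list was tested against that share. None of 14 genes of the gamma-tubulin ring and augmin complexes was called by limma (0 at an unadjusted p under 0.05 in both contrasts), nor any of 35 genes of kinetochore, checkpoint and anaphase promoting complex (3 unadjusted) or of 39 replication genes (2 unadjusted). For example, the checkpoint gene Bub3 differed by -0.01 and -0.04, and PCNA, the sliding clamp of replication, by 0.13 and -0.05. Of 19 cell cycle regulators 1 rose, gwl, the Greatwall kinase that holds back the PP2A phosphatase at mitotic entry, with 7.29, 7.26 and 7.36 against 6.70 to 7.02 (1.30-fold, limma, adjusted p = 0.0025 and 0.000385). Its call was stable. Of 29 spindle genes futsch, a neuronal microtubule-associated protein, rose (0.35) and the dynactin subunit gene DCTN1-p150 fell (-0.25). Of 12 condensin and cohesin genes Cap-G fell (-0.23). futsch (0.27 to 0.46) lost the call without DSas-6 replicate 1 or replicate 3, or w67 replicate 2 and also without centring, and DCTN1-p150 (-0.19 to -0.29) lost it without DSas-6 replicate 1 or replicate 3, or w67 replicate 2 or replicate 3. Cap-G (-0.20 to -0.27) lost the call without any 1 DSas-6 array, w67 replicate 2, or OregonR replicate 1 or replicate 2 and also without centring and with quantile normalization.

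Lists of stress and death genes had shares called from 0% to 7.69%, against 6.21% of all tested genes. Of 26 genes of the DNA damage response, 2 fell: PolQ, the polymerase theta of error-prone end joining, stood at 5.37, 5.65 and 5.62 against 5.94 to 6.17 (1.39-fold, limma, adjusted p = 0.00327 and 0.00181), and Rif1, a regulator of replication timing, fell 1.24-fold. Among 18 apoptosis genes Alg-2 alone was called. Among 18 genes of the JNK and JAK/STAT pathways and their targets it was zfh2, a transcription factor gene (0.65), and among 21 cytosolic chaperones Hsp110 (0.20). None of 21 folding genes of the endoplasmic reticulum was called (0 unadjusted). Of 55 detoxification genes Cyp4e2 rose 1.68-fold and Cyp301a1, a cuticle P450, fell at least 1.04-fold, to 3.50, 3.54 and 3.50. PolQ, Alg-2 and Cyp301a1 were stable. Rif1 (-0.23 to -0.36) lost the call without DSas-6 replicate 1 or replicate 3, or w67 replicate 3, and zfh2 (0.49 to 0.90) lost it without DSas-6 replicate 1 or replicate 2, or w67 replicate 3. Hsp110 (0.16 to 0.25) lost the call without DSas-6 replicate 1 or replicate 2, or OregonR replicate 1 or replicate 3 and also without centring, and Cyp4e2 (0.60 to 0.82) lost it without any 1 DSas-6 array, w67 replicate 2 or replicate 3, or any 1 OregonR array.

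Shares called differed between lists of the nervous system, from 3.12% for neuropeptides and their receptors to 21.6% for neuroblasts and asymmetric division, against 6.21% of all tested genes, and no difference between lists was tested. Of 37 tested genes of neuroblasts and asymmetric division 5 rose and 3 fell (21.6%), with list medians of 0.06 and 0.04. The genes that rose were brat and pros, which asymmetric division delivers to the daughter that differentiates, l(2)gl, which excludes fate determinants from part of the cortex, and Syp and chinmo, an antagonistic pair that times neuronal identity. The genes that fell were ham, erm and ey, transcription factors of intermediate neural progenitors. Stable among the 8 were l(2)gl (10.35, 10.66 and 10.36 against 9.80 to 10.08, 1.39-fold), erm (8.09, 8.21 and 8.09 against 8.46 to 8.63, difference -0.41) and ey (7.62, 7.50 and 7.66 against 7.81 to 8.05, 1.27-fold). For each of them the mutant arrays lay apart from the wild-type arrays. brat rose 1.62-fold, Syp 1.53-fold, pros 1.40-fold and chinmo 1.34-fold, and ham fell 1.39-fold. A second probe set of Syp differed by 0.07 and -0.05 and did not pass. One of chinmo differed by 0.56 from w67, which did not pass, and by 0.72 from OregonR, which did. brat (0.54 to 0.83) lost the call without DSas-6 replicate 2, or OregonR replicate 3, and Syp (0.48 to 0.74) lost it without DSas-6 replicate 1 or replicate 2, w67 replicate 2, or OregonR replicate 3. pros (0.36 to 0.63) lost the call without DSas-6 replicate 1 or replicate 2, w67 replicate 3, or OregonR replicate 1 or replicate 3, and chinmo (0.37 to 0.48) lost it without DSas-6 replicate 1. ham (-0.38 to -0.54) lost the call without DSas-6 replicate 1 or replicate 2, or OregonR replicate 2 or replicate 3.

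Of 28 neuronal genes 5 rose and 0 fell (17.9%), with list medians of 0.14 from w67 and 0.19 from OregonR: Vmat, the vesicular monoamine transporter (1.58-fold), Rbp6, a Musashi-like RNA-binding protein (1.57-fold), futsch (1.27-fold), and the endocytic genes shi, which encodes dynamin (1.19-fold), and lap, a clathrin adaptor (1.17-fold). Vmat stood at 7.35, 6.99 and 6.83 in DSas-6 and between 6.20 and 6.59 in the wild types, without overlap. None of the 5 was stable. Neuronal genes outside this list fell, Rbp 1.74-fold and TkR86C at least 1.06-fold, both stable, and elav passed with opposite signs against w67 and OregonR. The further probe sets of shi rose by 0.29 and 0.35 and a second of lap by 1.50. A second probe set of Vmat differed by 0.52 from w67, which did not pass, and by 0.71 from OregonR, which did. Vmat (0.51 to 0.78) lost the call without DSas-6 replicate 1 or replicate 2, w67 replicate 2 or replicate 3, or OregonR replicate 1 or replicate 3, and Rbp6 (0.46 to 0.73) lost it without DSas-6 replicate 1 or replicate 2, w67 replicate 2, or OregonR replicate 1 or replicate 3. shi (0.22 to 0.29) lost the call without any 1 DSas-6 array, w67 replicate 2, or any 1 OregonR array, and lap (0.20 to 0.25) lost it without any 1 DSas-6 array, or OregonR replicate 2 or replicate 3.

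Of 25 ion channel genes 2 rose, Hk, the beta subunit of a potassium channel (4.75, 4.27 and 4.48 against 3.49 to 3.85, at least 1.38-fold, stable), and NaCP60E, a sodium channel (1.60-fold). Of 46 genes of axon guidance and cell recognition 4 rose and 1 fell. NetB, a netrin that guides axons at the midline, was at 8.99, 8.73 and 8.95 against 7.82 to 8.48 and rose 1.59-fold (limma, adjusted p = 0.000353 and 0.00244). The mutant and wild-type arrays of NetB did not overlap. Abl, a tyrosine kinase (1.53-fold), and ena, the actin regulator it antagonises (1.46-fold), rose with Sema1a, and Dscam4, an immunoglobulin family member, fell 1.44-fold. Sema1a, NetB and Dscam4 were stable. Of 32 genes of neuropeptides and their receptors TkR86C was the single call, and of 26 glial genes Inx2 and Vmat rose. NaCP60E (0.56 to 0.84) lost the call without DSas-6 replicate 1 or replicate 2, any 1 w67 array, or OregonR replicate 1 or replicate 3, and Abl (0.45 to 0.76) lost it without DSas-6 replicate 1, or OregonR replicate 1. ena (0.47 to 0.65) lost the call without DSas-6 replicate 1.

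Cell type markers were summed to see whether whole classes shifted. The mean level of 8 neuronal markers was 9.64 to 9.89 on the DSas-6 arrays, 9.45 to 9.55 in w67 and 9.51 to 9.62 in OregonR. This mean lay above both wild types in the mutant, with 1 of the 8 (futsch) called, and the median difference of the 8 was 0.24 from each. The markers did not all go the same way: elav, also among the neuronal markers, was above w67 but lower than OregonR. The mean of 8 neuroblast markers was likewise higher, 9.38 to 9.50 against 9.18 to 9.29 and 9.22 to 9.27. Among them pros (0.575 and 0.487) and brat (0.809 and 0.695) were called, while the median difference of the 8 was 0.09 from w67 and 0.17 from OregonR. Both called genes contribute to the higher mean, so it does not show that the class as a whole shifted. The mean of 5 haemocyte markers was lower, 5.58 to 5.87 against 6.40 to 6.86 in w67 and 6.15 to 6.40 in OregonR, with none called. Pxn, a peroxidasin secreted by haemocytes, was at 7.18, 7.09 and 7.05 against 7.30 to 7.87, He at 3.92, 4.85 and 4.68 against 5.07 to 6.23, and Hml, haemolectin, at 4.13, 3.70 and 4.51 against 4.44 to 5.61. The haemocyte markers Sr-CI and NimC1 were under the filter. Their part in the results was not tested.

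Glial markers (9.78 to 9.81 against 9.61 to 9.86) and markers of wing, leg and haltere discs (8.64 to 8.99 against 8.75 to 9.01) overlapped between the strains. The mean of 7 eye disc markers lay slightly lower, at 9.17 to 9.19 against 9.28 to 9.32 in w67 and 9.20 to 9.23 in OregonR. The median difference of these 7 was -0.10 from w67 and 0.01 from OregonR, with ey and so called. The mean of 4 fat body markers, 6.03 to 6.33, lay between those of w67 and OregonR with overlap, and that of 5 ring gland markers overlapped both. None of 7 gut, 6 salivary gland and 7 muscle markers passed the filter on a probe set of its own. Over longer lists, none of 21 haemocyte and lymph gland genes was called (1 unadjusted), and their median difference was -0.23 from w67 and -0.07 from OregonR. None was called of 15 fat body genes (3 unadjusted), 16 ring gland genes (0 unadjusted), 13 muscle genes (3 unadjusted) or 13 cuticle protein genes (2 unadjusted).

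**Figure D3:**
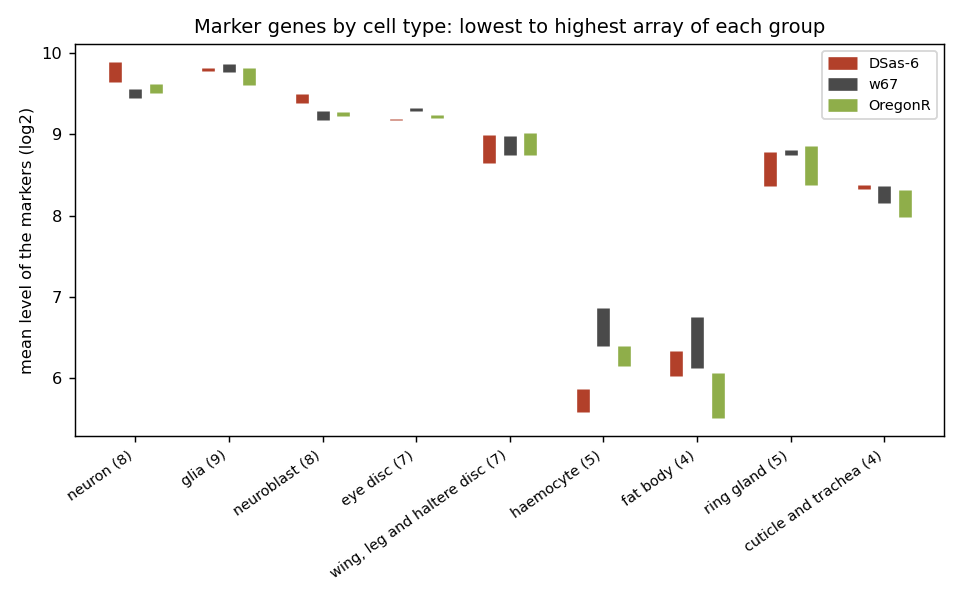
Mean log2 level of the measured markers of 9 cell types, drawn for each strain as a bar from its lowest to its highest array, with the number of markers in brackets. The DSas-6 bars lie above both wild types for neurons and neuroblasts and below both for haemocytes. For eye discs the DSas-6 bar lies below both but close to that of OregonR, and the vertical axis does not start at 0.

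In the discs the eye list had 1 rise and 5 falls among 27 tested genes (22.2%). Optix, a SIX-family gene of early eye development, was at 7.86 to 8.08 in DSas-6 against 8.27 to 8.61 and fell 1.39-fold (limma, adjusted p = 0.00487 and 0.00179). ey, the fly Pax6 gene, fell 1.27-fold, dan 1.26-fold, eyg, a Pax gene of eye growth, 1.28-fold and so, a SIX-family partner of eya, by 0.20 on the log2 scale (difference -0.20). The broadly expressed partner of proneural proteins da rose 1.45-fold. Optix, ey and dan were stable, and eyg overlapped the wild types. ey and erm are also expressed in the brain. eyg (-0.28 to -0.50) lost the call without DSas-6 replicate 1 or replicate 2, any 1 w67 array, or any 1 OregonR array and also without centring and with quantile normalization, and so (-0.16 to -0.24) lost it without any 1 DSas-6 array, w67 replicate 1, or OregonR replicate 2 or replicate 3 and also without centring and with quantile normalization. da (0.43 to 0.73) lost the call without DSas-6 replicate 1 or replicate 2, w67 replicate 1 or replicate 3, or OregonR replicate 3.

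Of 49 genes of wing, leg and haltere discs 2 rose and 3 fell. The stable ones were disco, a zinc finger gene of the appendages (9.23, 9.48 and 9.27 against 8.88 to 9.05, 1.24-fold higher), and salr, a zinc finger gene of the central wing (7.92, 7.95 and 7.87 against 8.14 to 8.56, 1.36-fold lower). Sox15 fell 1.39-fold. Sox15 (-0.36 to -0.59) lost the call without DSas-6 replicate 1 or replicate 2, or w67 replicate 2 or replicate 3 and also with quantile normalization. Lists of patterning pathways had shares called from 0% (Hedgehog, Dpp and activin) to 15.4% (Wingless), against 6.21% of all tested genes. None of 18 Hedgehog genes (2 unadjusted) or of 23 Dpp and activin genes (4 unadjusted) was called. The Hedgehog transcription factor gene ci differed by 0.19 and 0.15, and tkv, a Dpp receptor, by -0.06 and -0.10. Of 25 Notch genes E(spl)m3-HLH, a target of the pathway, rose 1.16-fold, and of 13 Wingless genes Cow and gish, a casein kinase, rose.

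All 3 calls among 23 genes of receptor tyrosine kinase pathways were falls. Egfr, the epidermal growth factor receptor, stood at 8.22, 8.20 and 8.06 against 8.52 to 9.23 and fell 1.51-fold. ksr, a scaffold of the Ras to MAP kinase cascade, stood at 7.89, 7.95 and 7.82 against 8.11 to 8.62 and fell 1.28-fold (limma, adjusted p = 7.25e-05 and 0.00409). pyr, a ligand of the FGF receptor heartless, fell 1.24-fold and overlapped the wild types. Of 20 genes of the insulin and Tor pathway Akt, the kinase downstream of the insulin receptor, rose, with 11.62, 11.86 and 11.31 against 10.70 to 11.06 (1.58-fold). dgo, a core gene of planar polarity, was the single call among 27 Hippo and polarity genes and fell 1.44-fold, to 6.92, 6.92 and 6.85 from 7.35 to 7.69. ksr, Akt and dgo were stable. Of 27 ecdysone response genes Smr, a corepressor, rose 1.47-fold and ERR, the oestrogen-related receptor, fell 1.16-fold. Egfr (-0.49 to -0.68) lost the call without any 1 DSas-6 array, or OregonR replicate 1 or replicate 2, and pyr (-0.26 to -0.39) lost it without DSas-6 replicate 1 or replicate 3, w67 replicate 1 or replicate 2, or any 1 OregonR array and also with quantile normalization. gish (0.32 to 0.38) lost the call without DSas-6 replicate 1 or replicate 2, or OregonR replicate 1 or replicate 3, and Smr (0.46 to 0.70) lost it without DSas-6 replicate 1 or replicate 2, or OregonR replicate 3. ERR (-0.13 to -0.27) lost the call without DSas-6 replicate 1 or replicate 3, any 1 w67 array, or any 1 OregonR array and also without centring and with quantile normalization.

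Of 62 genes of Polycomb, Trithorax and chromatin 5 rose and 3 fell (12.9%). Beside Tet, nej, the CBP acetyltransferase, stood at 8.99, 8.99 and 9.12 against 7.94 to 8.45 and rose 1.61-fold (limma, adjusted p = 0.000981 and 0.000142). A second probe set of nej rose by 1.69. su(Hw), an insulator protein, rose 1.44-fold and E(z), the methyltransferase of Polycomb repressive complex 2, by 0.28, from 8.04 to 8.25 on the wild-type arrays to 8.47 to 8.51. enok, an acetyltransferase, fell 1.34-fold. These 5 were stable, while psq rose 1.33-fold and Su(z)12, a partner of E(z) in the same complex (-0.17), and Mi-2, a nucleosome remodeller (-0.27), fell with calls that were not. psq (0.35 to 0.48) lost the call without DSas-6 replicate 1 or replicate 2, or any 1 w67 array, and Su(z)12 (-0.16 to -0.18) lost it without any 1 DSas-6 array, or any 1 w67 array. Mi-2 (-0.20 to -0.33) lost the call without DSas-6 replicate 2, or OregonR replicate 2.

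Of 52 genes of splicing and RNA binding 8 rose and 1 fell (17.3%), with list medians of 0.08 and 0.05. heph, the polypyrimidine tract binding protein, stood at 12.46, 12.54 and 12.47 against 11.78 to 12.11 (difference 0.50), and glo, an hnRNP of the F/H type, at 12.41, 12.27 and 12.35 against 11.96 to 12.02 (difference 0.34). Both were stable and lay apart from the wild types. Sxl, the switch gene of sex determination, which also binds RNA in other contexts, rose 1.54-fold, to 11.18, 11.22 and 10.98 from 10.33 to 10.73. It was called in each omission of 1 array but not as the mean of its probe sets, since its other probe sets differed by 0.09 and 0.22. cpo, an RNA-binding protein of the nervous system (1.49-fold), and larp (0.20) rose with sm, brat and Syp, and Ythdc1, a reader of methylated adenosine, fell (-0.42). A second probe set of cpo differed by -0.25 and -0.12 and did not pass, nor did one of larp, at 0.09 and 0.10. cpo (0.36 to 0.66) lost the call without DSas-6 replicate 1 or replicate 2, w67 replicate 2 or replicate 3, or OregonR replicate 3, and larp (0.14 to 0.24) lost it without DSas-6 replicate 1 or replicate 2, w67 replicate 1 or replicate 2, or OregonR replicate 2 and also without centring and with quantile normalization. Ythdc1 (-0.35 to -0.51) lost the call without DSas-6 replicate 2, or OregonR replicate 2.

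Transcription machinery had 3 rises and 6 falls among 91 genes (9.89%). The stable calls were lilli, of the AF4 family of elongation factors (5.96, 5.97 and 5.63 against 4.82 to 5.38, 1.57-fold higher), and the falls of Polr1H, a subunit of RNA polymerase I (1.37-fold), and of the Mediator subunit genes MED16 (5.52, 5.62 and 5.55 against 5.87 to 5.93, 1.25-fold) and MED1 (1.22-fold). Of 42 nuclear pore and transport genes Tnpo and Nup93-2 rose. None of 34 cytosolic ribosomal protein genes (1 unadjusted) or of 71 mitochondrial ones (2 unadjusted) was called by limma. Of 30 aminoacyl tRNA synthetases ValRS fell 1.35-fold (8.70, 8.64 and 8.41 against 8.84 to 9.13, stable) and ProRS-m rose 1.13-fold. Translation factors (2 rose, 1 fell of 42) and ribosome biogenesis genes (3 rose, 1 fell of 55) were near the background. Nup93-2 (0.16 to 0.31) lost the call without DSas-6 replicate 1 or replicate 3, w67 replicate 1, or OregonR replicate 1 or replicate 2, and ProRS-m (0.17 to 0.18) lost it without any 1 DSas-6 array, w67 replicate 3, or any 1 OregonR array and also with centring on the probe sets at 4 or more.

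**Figure D4:**
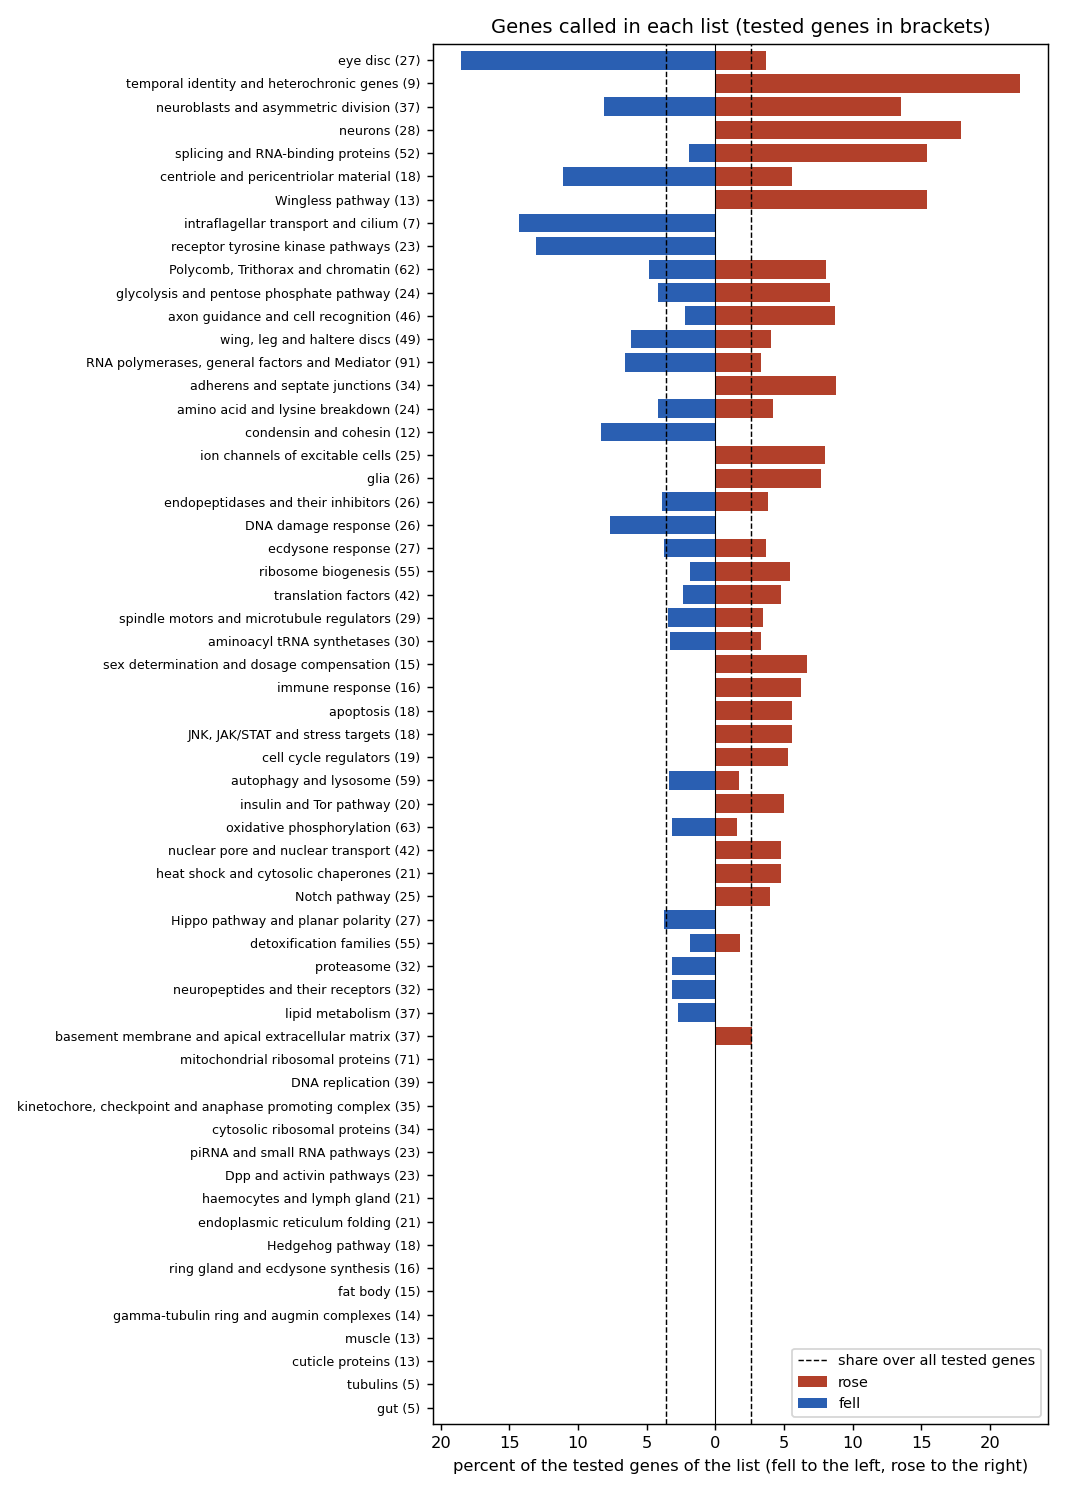
For each list with at least 5 tested genes, the percentage of its tested genes that rose (red, to the right) and that fell (blue, to the left), with the shares over all tested genes, 2.6% and 3.61%, as dashed lines. The eye disc list extends farthest to the left, and the lists of temporal identity genes, neurons, splicing and Wingless genes extend farthest to the right, on 9, 28, 52 and 13 tested genes.

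In metabolism, Hex-A, the main hexokinase, stood at 8.49, 8.45 and 8.37 against 7.49 to 7.81 and rose 1.60-fold (limma, adjusted p = 5.95e-05 and 0.000445). It was the stable call of the 3 among 24 glycolysis genes. ACC, acetyl-CoA carboxylase, the first enzyme of fatty acid synthesis, was the only call among 37 lipid genes and fell 1.30-fold, to 8.75, 8.57 and 8.73 from 9.01 to 9.32. Of 63 genes of oxidative phosphorylation 1 rose, ATPsynepsilonL (1.40-fold, stable), and 2 subunits of complex I fell, ND-13B (-0.18) and ND-42. Of 59 genes of autophagy and lysosome Vps16A, a tethering factor of endosomes and lysosomes, rose 1.23-fold (stable) and 2 fell. Of 32 proteasome genes Rpt3R, a relative of a base ATPase, fell 1.51-fold. ND-13B (-0.17 to -0.21) lost the call without any 1 of the 9 arrays, and Rpt3R (-0.52 to -0.66) lost it without DSas-6 replicate 2 or replicate 3, or w67 replicate 2.

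At the cell surface, 3 of 34 genes of adherens and septate junctions rose and none fell: ed (10.63, 10.78 and 10.43 against 9.62 to 10.02), l(2)gl, and p120ctn, which binds cadherin (12.10, 12.14 and 11.93 against 11.68 to 11.78, 1.22-fold). All 3 were stable. Of 37 matrix genes dpy alone was called. Of 26 endopeptidase and inhibitor genes the neprilysins went apart, Nep1 falling 1.99-fold and Nep3 rising 1.47-fold (8.57, 8.46 and 8.15 against 7.71 to 7.90). Oseg4, of the intraflagellar transport machinery that builds cilia on centrioles, was at 7.65, 7.62 and 7.57 against 7.88 to 8.08 and fell 1.31-fold, the 1 call among 7 tested genes of that list. None of 5 tubulin genes was called (1 unadjusted), with betaTub56D at 0.17 and 0.08, nor any of 23 genes of small RNA pathways (1 unadjusted).

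Sas-6 lies on arm 3R, and the genes around it were counted in the gene order of the RefSeq table of Release 6. Of the 50 tested genes nearest to it, 25 on each side, 4 were called (8%), and of the nearest 200 genes 13 (6.5%), against 6.21% overall and 7.19% on the whole arm. On arms 2L, 2R, 3L, 3R and X, calls made up between 4.82% (2L) and 7.19% (3R) of the tested genes. Among the 10 tested genes on each side CG15525 was the single call, at 8.93, 8.94 and 8.91 against 8.48 to 8.72 (1.21-fold higher). The other called genes nearest by rank were Pglym78, CG2218 and CG12054, which rose, and dmrt99B, Wdr24, ca, dgt1, Rsod and Sox100B, which fell. dmrt99B, a DM-domain transcription factor gene, fell furthest after Rsod, to 4.80, 4.67 and 4.79 from 5.35 to 5.63 (1.55-fold, limma, adjusted p = 1.96e-06 and 7.59e-06), and these were the stable ones of the 10. CG15525 (0.23 to 0.29) lost the call without DSas-6 replicate 1 or replicate 2, or w67 replicate 1 and also without centring, and Pglym78 (0.13 to 0.23) lost it without DSas-6 replicate 3, w67 replicate 3, or OregonR replicate 2 or replicate 3 and also without centring. CG2218 (0.20 to 0.29) lost the call without DSas-6 replicate 1 or replicate 3, w67 replicate 1 or replicate 2, or OregonR replicate 1 or replicate 2 and also without centring and with quantile normalization, and CG12054 (0.32 to 0.54) lost it without DSas-6 replicate 1 or replicate 2, or w67 replicate 2 or replicate 3. Further probe sets of CG12054 differed by 0.14 and 0.25 and by -0.10 and -0.17, and did not pass. Wdr24 (-0.31 to -0.40) lost the call without DSas-6 replicate 1 or replicate 2, or OregonR replicate 2, and ca (-0.28 to -0.33) lost it without DSas-6 replicate 2, or OregonR replicate 1 or replicate 2. dgt1 (-0.13 to -0.16) lost the call without any 1 DSas-6 array, any 1 w67 array, or OregonR replicate 2 or replicate 3, and Sox100B (-0.37 to -0.66) lost it without DSas-6 replicate 1 or replicate 3, or w67 replicate 1 and also with quantile normalization.

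The DSas-4 mutants, labelled like DSas-6 as lacking centrioles, allow a direct test of the difference between the strains, which uses the same DSas-6 arrays as the calls. Over all genes 1458 (21%) differed between them. The lowest deposited value also differed between these strains (2.1777 in DSas-6, 2.1741 in DSas-4), so normalization run and strain cannot be told apart here either. Of the 430 genes called in DSas-6 mutants 328 differed from DSas-4, 326 of them in the direction of the call: 118 of the 180 that rose were above DSas-4 and 208 of the 250 that fell below it. Of the 30 leading genes 29 differed, the exception being CG6357 (0.39, adjusted p = 0.17). Sas-6 itself was 4.34 lower in DSas-6 than in DSas-4 (difference -4.34), and Tet was 1.16, Tnpo 1.47 and dpy 1.34 higher.

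For 6 genes the strains were called in opposite directions against the shared wild types. CG7650 was 1.01 and 1.77 lower in DSas-6 than in w67 and OregonR (differences -1.01 and -1.77) and 2.01 and 1.25 higher in DSas-4. In DSas-6, a second probe set of CG7650 differed by -0.51 from w67, which did not pass, and by -1.37 from OregonR, which did. CG18599 was 0.73 and 0.83 higher in DSas-6 and differed by -1.10 from w67 in DSas-4. CG13609, Os-C and Su(z)12 were lower in DSas-6 and higher in DSas-4, and CG8066 the reverse. In DSas-6, CG18599 (0.44 to 0.83) lost the call without DSas-6 replicate 2 or replicate 3. Os-C (-0.33 to -0.57) lost it without any 1 DSas-6 array, or OregonR replicate 1 or replicate 2 and also with quantile normalization. Haemocyte markers, lower than wild type in DSas-6 without a call, were lower than in DSas-4, with a difference of -2.36 for Hml (limma, adjusted p = 0.00135), -1.18 for Pxn (adjusted p = 0.000413), -1.82 for He (adjusted p = 0.0318) and -1.80 for srp, the GATA factor of blood cells (adjusted p = 0.0438). The fifth measured marker, crq, differed by -0.09 and did not pass. For Hml, Pxn and He the difference puts the DSas-4 mean above every wild-type array. The contrast for these genes thus mixes a lower level in DSas-6 with a higher level in DSas-4.

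**Figure D5:**
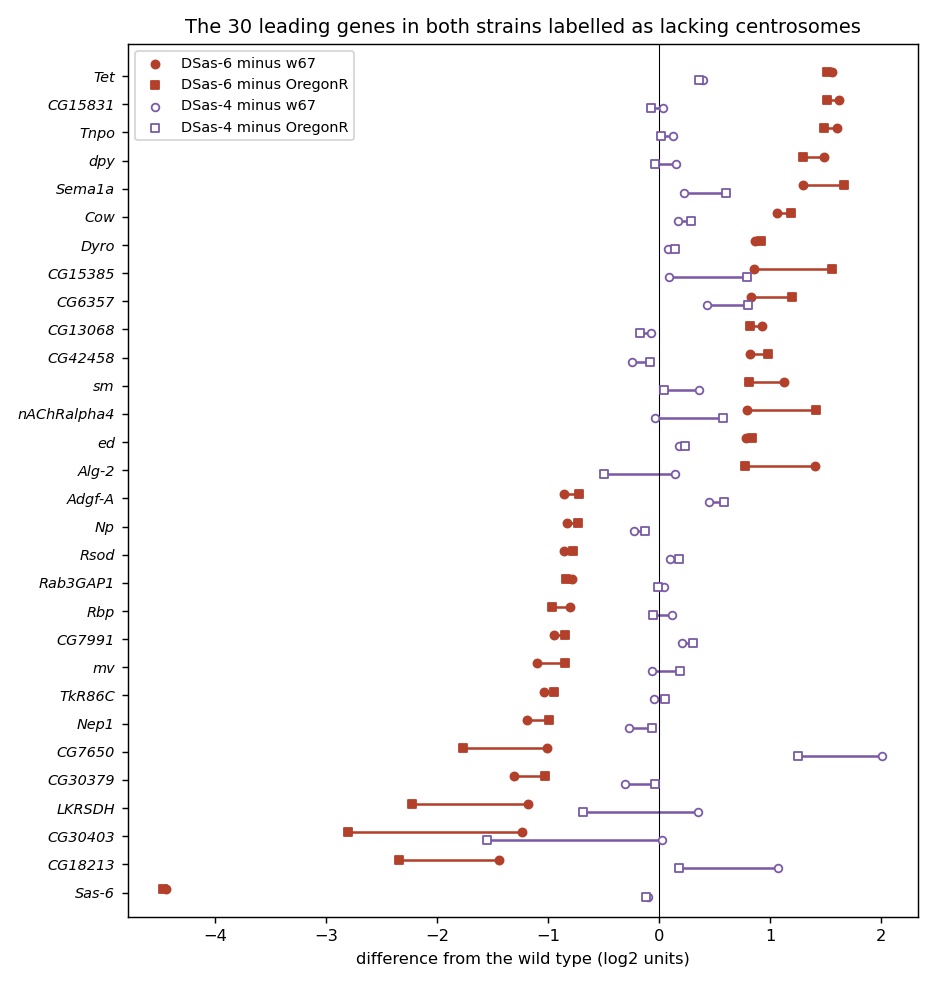
Differences in log2 units from w67 (circles) and OregonR (squares) for the 15 genes with the largest rise and the 15 with the largest fall in DSas-6, shown for DSas-6 (filled) and for DSas-4 (open), with both strains compared to the same wild-type arrays. The DSas-4 values lie nearer 0 than the DSas-6 values for most genes, and CG7650 lies on the other side of 0.

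Each gene was read from its probe set of highest mean, and 385 genes had others past the filter. As a background, 76 of 469 further probe sets of genes not called (16.2%) passed in either direction. The counts that follow are set beside that share and lend the calls no support. For 37 called genes 47 further probe sets were measured, of which 32 differed in the direction of the call, 8 passed with it and 2 passed against it. The opposing pair were mnb, a kinase of brain growth, whose main probe set fell (-0.23) while another rose by 1.50, and mtd, mustard, whose main probe set rose (0.28) while another fell (-0.32). For these genes a single direction cannot be given. The mnb call (-0.17 to -0.28) was lost without DSas-6 replicate 1 or replicate 3, any 1 w67 array, or any 1 OregonR array. It was also lost without centring. The mtd call (0.21 to 0.34) was lost without DSas-6 replicate 1 or replicate 2, or w67 replicate 1 or replicate 3. It was also lost without centring and with quantile normalization. Of the 430 called genes 67, and of all tested genes 973, rest on probe sets whose name marks a possible match to other transcripts, among them Tnpo, Nep1, brat, Syp, l(2)gl, Akt, Sxl, su(Hw), salr and heph.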

How the data were processed

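Total RNA of brains and imaginal discs was extracted with Trizol, and 500 ng per sample were labelled with a 3′ in vitro transcription kit, per the labels' protocols, for single-colour Affymetrix arrays of the Drosophila genome. The deposited values are taken as log2 expression: the authors used GCRMA and limma, per the submitters' processing notes, with versions not given in the sources used here, and the scale was read from the values. Each array holds 18952 probe sets. A single gene symbol was annotated for 13647 of them, and 13544 of these matched RefSeq Release 6 through the Entrez identifier, with 0 symbols to update.

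Samples were grouped by the genotype in the labels. Probe sets with 1 symbol that reached 4 on at least 3 of the 9 arrays were kept, each gene was read from its probe set of highest mean, and each array was centred on the median of these genes. With limma 3.58.1 in R 4.3.3, a linear model took every group's mean as a coefficient, and eBayes moderated the spread pooled over the 15 arrays. Tests were two-sided with Benjamini-Hochberg adjustment over the 6928 genes within each contrast and a threshold of 0.05. Where a group was under 4 on all 3 arrays, folds were bounded at 4 and written as at least N-fold. Errors are SD with n = 3 arrays, and the number of arrays limits the precision. The labels call the replicates biological, and no arrays held identical values.

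In all, 19 alternatives were run: other scalings, filters, probe set rules and variance models, a replicate block, and each of the 9 arrays left out. Named genes are Sas-6, Sas-4 and SAK, the 15 largest changes in each direction, up to 5 called members of each of 62 lists, or the member of highest mean where none was called, the called genes nearest to Sas-6 and the 5 of highest level in each direction; others are said to be chosen otherwise or belong to a list's count. The comparison and the lists were chosen with earlier results of these data known. After values were seen, 3 list members whose synonym had matched an unrelated gene were removed, which changed no count of calls. The fit was tested on simulated data. No sequences or coordinates are given, since no genome was used here.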

Additional observations from a re-analysis of the deposited data

Results flagged for a closer look

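Of the 430 genes called in DSas-6 mutants, 328 also differed from DSas-4 mutants (limma), against 1458 of all 6928 tested genes (21%). The 430 genes were chosen on the same DSas-6 arrays that enter this contrast, so the count is a description. The genes called in opposite directions in these strains had differences, DSas-6 minus DSas-4, of -3.02 for CG7650, 1.83 for CG18599, 1.44 for CG8066, -1.32 for Os-C, -1.04 for CG13609 and -0.40 for Su(z)12. These differences use the same DSas-6 arrays as the calls, and the calls in both strains share the wild-type arrays. The DSas-6 calls of CG18599, Os-C and Su(z)12 were not stable.

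Probe sets outside the tested genes also held calls, set here against 6.21% of the tested genes. Among probe sets that match several gene symbols, 16 of 214 tested passed against each wild type with the same sign (7.48%), 3 of them higher and 13 lower. Among probe sets with no symbol, 72 of 810 were called (8.89%), 50 higher and 22 lower. These carry no single gene name here.

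Control probe sets were above every wild-type array on all 3 DSas-6 arrays. Their mean DSas-6 level was 8.91 for the dap spike-in, 4.20 for lys (3.68 in w67, 3.77 in OregonR), 5.11 for phe (4.59, 4.60), 6.40 for thr (5.70, 5.94) and 11.29 for 18S ribosomal RNA (10.17, 10.26).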

How the results depend on the processing

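With no filter on dim probe sets 818 genes were called against both wild types (374 higher, 444 lower), 5917 against w67, 1526 against OregonR and 6313 against DSas-4. On each array between 32.65% and 34.27% of the probe sets sat exactly at its lowest value. That value was 2.1777 in DSas-6, 2.1741 in w67 and DSas-4 and 2.1799 in OregonR, before centring. The part of these probe sets in the counts was not tested. Leaving out 1 array gave 252 to 402 calls against both (98 to 204 higher, 150 to 229 lower), 563 to 931 against w67, 633 to 1012 against OregonR and 973 to 1438 against DSas-4. The calls against both were fewest without DSas-6 replicate 1 (252) or 2 (264). Falls numbered 166 without OregonR replicate 2, and calls against w67 numbered 614 without w67 replicate 2 and 563 without w67 replicate 3. Calls against OregonR numbered 647 without OregonR replicate 2. Each omission also leaves fewer samples. The count against both was 422 without centring, 409 with quantile normalization, 324 with a filter at 6 and between 392 and 467 under the other alternatives. Genes higher in the mutant made up 41.9% of the calls against w67 and 44.9% against OregonR, but 14.3% and 56.8% without centring. Once dim probe sets were kept, 4787 of the 5917 calls against w67 were higher (80.9%), as were 610 of the 1526 against OregonR. Over the named genes 0 alternatives turned a direction of a call. Replicate numbers showed no clear pairing of the samples. Deviations of same-numbered arrays correlated at r between -0.14 and 0.31, and those of different-numbered arrays at r between -0.38 and 0.30. A fit with the replicate number as a block called 392 genes and kept 86.3% of the 430. With 3 arrays a group, differences under the threshold are not shown to be absent.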

Other observations

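In the lists not described above, shares called ran from 0% to 22.2%, against 6.21% of all tested genes. Of 24 genes of amino acid breakdown LKRSDH fell and Sam-S rose, and of 16 immune genes GNBP2, a recognition protein of the Toll pathway, rose at least 1.23-fold, at 4.33, 4.37 and 4.30 against 3.54 to 4.14; leaving out either of DSas-6 replicates 1 and 2 or of w67 replicates 1 and 3 ended that call (0.31 to 0.51 over the omissions). Sxl was the 1 call among 15 genes of sex determination and dosage compensation, and Syp and chinmo were the 2 among 9 genes of temporal identity. None was called by limma of 4 homeotic genes (1 at an unadjusted p under 0.05), 5 gut genes (1), 3 salivary gland genes (0) and 3 testis genes (0). Most members of these 4 lists were under the filter.

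Probe sets other than the one that represents a gene were fitted among all 7444 with a single symbol. Of 469 that belong to genes not called, 76 were called (16.2%), of which 47 were higher and 29 lower. The largest, chosen after their values were seen, were 1 probe set each of mbl, a splicing factor (1.63), B52, an SR protein of splicing (1.33), sowah (1.24), and NT1, a neurotrophin (-1.20). Both further probe sets of ec listed among the calls rose, by 1.09 and 0.87, and trr, a histone H3 methyltransferase, had 1 that fell (-0.98). The probe set of highest mean of each of these genes did not pass.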
